A study of Homo sapiens with 2 samples.

Results

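The LINC-named long non-coding RNAs of a bladder urothelial carcinoma cell line are described here in cells that carry an ANGPTL4 plasmid and in cells that carry the empty vector. They were chosen by name and by measured level: the rows of the deposited gene tables whose name is LINC followed by digits and whose level was at least 0.5 RPKM (reads scaled to exon length and to the reads of the library) in at least 1 of the 2 libraries were selected on these values. Of 57773 rows, 614 have such a name: 465 were listed at 0 in both libraries, 73 were above 0 but under 0.5 RPKM in both, and 76 met the rule, among 13549 features of any name that reached 0.5 RPKM. The selection used the levels compared below, so the levels are given as a description: 53 members passed in both libraries, 11 in the ANGPTL4 library alone and 12 in the control library alone, and nothing is read from the difference of those that passed through 1 library.

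The BFTC 905 line was transfected with a plasmid that overexpresses ANGPTL4, a secreted inhibitor of lipoprotein lipase, or with the vector pcDNA3.1-myc-His (-) A. Both groups were selected as stable clones in G418, a drug that kills cells without the plasmid's resistance gene, and the number of clones is not given in the sources used here. Total RNA was sequenced in 1 library per group, so no difference below has a replicate check, and an effect of ANGPTL4 cannot be told apart from a difference between clones or libraries. In bulk RNA, fewer cells with a transcript and less of it per cell cannot be told apart either. ANGPTL4 itself was at 91.2 RPKM (732 reads) in the ANGPTL4 library, against 3.92 RPKM (64 reads) in the control library. The depth worked out from the mitochondrial rows was 3233596 reads in the ANGPTL4 library and 6572767 in the control library. Of 11 urothelial carcinoma markers 10 were measured, with summed levels of 1447 and 1496 RPKM in the ANGPTL4 and control libraries, and UPK3A, a uroplakin of the umbrella cell layer, was listed at 0 in both. Markers of leukocytes, fibroblasts and endothelium summed to 1.25 RPKM in the ANGPTL4 library and 1.01 RPKM in the control library over the 8 of 9 found in the tables, with CD3E, PDGFRA and DCN among those at 0 in both. Most of these sums came from COL1A2 of fibroblasts (0.666 and 0.559 RPKM) and VWF of endothelium (0.530 and 0.383 RPKM), ANGPTL4 library first. These were the 2 markers that reached 0.5 RPKM in a library.

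A LINC symbol is a numbered placeholder for a transcript from between protein-coding genes, given when no long reading frame and no function was known. Such RNAs are usually spliced and capped by RNA polymerase II like messenger RNAs, are often kept in the nucleus and are turned over by the nuclear exosome, and most are present at few copies per cell. Some have since been renamed because a function was found or because a short reading frame proved to be translated. RefSeq holds all 76 members, 19 of them under another symbol, and lists 69 as long non-coding RNA, 1 (LINC00505, FAAHP1) as a transcribed pseudogene and 6 as protein-coding.

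The short reading frames of LINC00998, LINC00116 and LINC00493 are shown because these are the 3 measured members of the list of LINC rows known to encode small proteins. They are read from GENCODE release 29 transcripts with the start and stop codons in capitals: 59 codons for SMIM30 (the LINC00998 row, chromosome 7), 56 for MTLN (LINC00116, chromosome 2) and 95 for SMIM26 (LINC00493, chromosome 20), not counting the stop. For MTLN and SMIM26 the release annotates 2 and 3 different frames, and the one found on most transcripts, or else the principal one, is given.

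SMIM30: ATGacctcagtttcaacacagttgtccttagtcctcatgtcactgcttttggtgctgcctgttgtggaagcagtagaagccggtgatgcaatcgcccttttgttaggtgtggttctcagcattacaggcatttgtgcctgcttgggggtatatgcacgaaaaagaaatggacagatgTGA
MTLN: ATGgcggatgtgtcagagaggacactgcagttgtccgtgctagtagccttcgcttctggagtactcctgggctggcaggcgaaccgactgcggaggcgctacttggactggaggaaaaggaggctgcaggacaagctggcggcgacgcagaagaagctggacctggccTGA
SMIM26: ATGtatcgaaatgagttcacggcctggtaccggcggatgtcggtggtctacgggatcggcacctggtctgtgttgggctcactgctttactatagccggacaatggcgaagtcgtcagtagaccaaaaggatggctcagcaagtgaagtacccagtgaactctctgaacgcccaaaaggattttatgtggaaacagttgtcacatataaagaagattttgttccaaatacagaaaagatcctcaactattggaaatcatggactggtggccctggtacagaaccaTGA

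The promoter windows of the only 2 members that were at least 2-fold lower with a counting interval that left out 1 (values below) are shown from 250 bases before to 50 after the RefSeq start, on the minus strand of GRCh38.p14, at chr7:113118505-113118804 for SMIM30 (LINC00998) and chr1:37474394-37474693 for LITATS1 (LINC01137). Capitals mark matches on either strand to the 6 motifs searched, which are the TATA box (TATAAA), the CCAAT box (its 5 letters as named), the GC box (GGGCGG), the ETS core (CCGGAAG), the E box (CACGTG) and the ZNF143-type motif.

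SMIM30 promoter: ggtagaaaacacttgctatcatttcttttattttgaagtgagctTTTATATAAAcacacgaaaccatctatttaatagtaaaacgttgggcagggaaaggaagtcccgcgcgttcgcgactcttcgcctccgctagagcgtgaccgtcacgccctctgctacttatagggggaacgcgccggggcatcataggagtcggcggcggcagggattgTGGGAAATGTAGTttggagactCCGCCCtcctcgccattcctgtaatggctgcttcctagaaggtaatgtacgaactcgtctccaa
LITATS1 promoter: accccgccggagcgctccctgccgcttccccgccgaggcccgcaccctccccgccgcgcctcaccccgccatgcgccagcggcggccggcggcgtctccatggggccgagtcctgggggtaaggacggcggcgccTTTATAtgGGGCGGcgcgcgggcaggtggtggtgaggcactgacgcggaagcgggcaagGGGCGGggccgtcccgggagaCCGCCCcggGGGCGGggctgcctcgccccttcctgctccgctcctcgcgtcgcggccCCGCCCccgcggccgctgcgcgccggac

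The SMIM30 window holds 2 overlapping TATA box matches, 1 on each strand, 1 GC box on the other strand and 1 match to the ZNF143-type motif, known as the binding element of that zinc finger protein. The LITATS1 window holds 5 GC boxes and 1 TATA box match on the other strand. Over the 54 members with a promoter in the RefSeq table, 48.1% held a GC box, 13% a TATA box, 44.4% a CCAAT box, 14.8% an ETS core, 7.41% an E box and 1.85% (SMIM30 alone) the ZNF143-type motif. The shares over all 27305 promoters were 44.6%, 12%, 35.7%, 10.7%, 7.43% and 1.49% in the same order of motifs. The median GC content was 59.3% in member windows and 58.3% in all windows. These matches are letters in a window and were not tested as sites.

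Levels were low. The median member stood at 0.958 RPKM in the ANGPTL4 library and 0.943 RPKM in the control library, against 4.31 and 4.81 RPKM for all features that met the same minimum. Of the 76 members, 43 reached 1 RPKM and 11 reached 5 RPKM in a library. One read on 2000 bases of exon is worth 0.155 RPKM in the ANGPTL4 library and 0.0761 RPKM in the control library, so many members rest on a few reads, and 33 had fewer than 20 reads in both libraries together, on reads that are minimum numbers where the exon length is unsettled. The 10 members with the highest mean held 47.2% of the summed member RPKM in the ANGPTL4 library and 52.1% in the control library. Across the 76 members the levels in the libraries had a Spearman rho of 0.70, where a shared exon length and shared sequence enter both values. The members lie on 22 chromosomes, most on chromosomes 1 (10 members) and 10 (9 members). LINC00493 (SMIM26) was the highest member in the control library and LINC01106 the highest in the ANGPTL4 library.

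**Figure D1:**
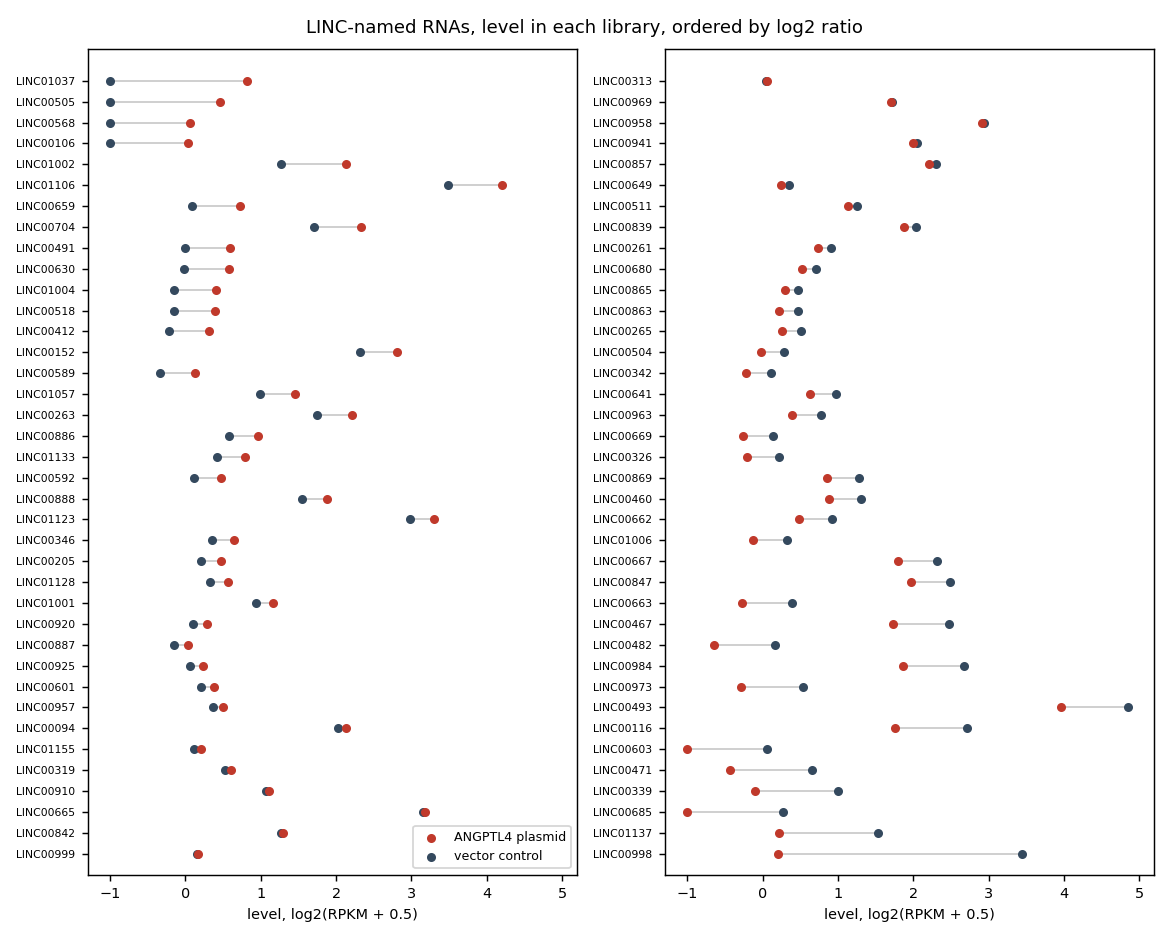
Level in RPKM (log axis) of each of the 76 LINC-named RNAs in the ANGPTL4 plasmid library and the vector control library, 1 library each, ordered by log2 ratio. Most points of both libraries lie near 1 RPKM, and LINC00998 (0.652 and 10.4 RPKM in the ANGPTL4 and control libraries) stands at the low end of the order.

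Size of difference was judged as log2 of the ratio of RPKM + 0.5, ANGPTL4 over control, with 2-fold as the size that counts. At this size 4 members (5.26%) were higher and 6 (7.89%) were lower in the ANGPTL4 library, beside 2.89% of all measured features higher and 3.88% lower. Those features stand at higher levels than the members. All 4 higher members passed the 0.5 RPKM rule in the ANGPTL4 library alone. Among the lower, LINC00685, LINC00603, LINC00339 and LINC00471 passed it in the control library alone. The rule thus helped to set both counts, and the same minimum was put on all features. Nothing is read from these counts. Among rows with a mean of 0.5 to 2 RPKM, 2.22% of 45 members were higher and 6.67% lower. Of all 3315 features in that band, 4.86% were higher and 4.68% lower. All 4 higher members were listed at 0 in the control library and had very few reads in the ANGPTL4 library, where 3 reads is the floor used here for a level. A number of reads given as "at least" is a minimum, because the exon length of that row could not be settled, and its interval may then be too wide. LINC01037 was at 1.25 RPKM (at least 2 reads) in the ANGPTL4 library. LINC00505, the FAAHP1 pseudogene, was at 0.874 RPKM (at least 1 read) there. LINC00568 (FALEC), named for its focal amplification in cancer, was at 0.546 RPKM and LINC00106 at 0.522 RPKM there, with 1 read each. No fold is given for these 4, which rest on so few reads against 0. Of the 6 lower members, LINC00685 had 0 reads in the ANGPTL4 library and 2 in the control library (0.711 RPKM), and LINC00603 had 0 and 3 reads (0.541 RPKM in the control library), also at or under the floor.

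The other 4 lower members had more reads in the control library. LINC00998, which encodes the small integral membrane protein SMIM30 and lies at chr7:112756773-112758668 of hg19, was at 0.652 RPKM in the ANGPTL4 library and 10.4 RPKM in the control library. These levels are 4 reads and 129 reads on an exon length of 1896 bases, a ratio of 0.0630 with an exact 95% counting interval of 0.0169 to 0.165. It was the lowest log2 ratio of the 76 members (-3.24), and the clone-named row that overlaps it was listed at 0 in both libraries. Its nearest measured row, C7orf60, lies 176801 bases away and was at 1.20 RPKM in the ANGPTL4 library and 2.06 RPKM in the control library.

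LINC01137 (LITATS1), at chr1:37920480-37940012 of hg19, came next. It was at 0.665 RPKM (3 reads, the floor used here) in the ANGPTL4 library and 2.40 RPKM (22 reads) in the control library, a ratio of 0.277 (0.0531 to 0.923). Its log2 ratio was -1.32, and with 5 RPKM added in place of 0.5 it was -0.39, short of 2-fold. It lies 140 bases from ZC3H12A, which encodes an endonuclease that degrades inflammatory messenger RNAs, and that gene was at 27.7 RPKM in the ANGPTL4 library and 24.3 RPKM in the control library. The neighbour was thus slightly higher where LINC01137 was lower. LINC00339 (0.434 and 1.50 RPKM in the ANGPTL4 and control libraries) rested on at least 1 read and at least 7 reads, with a ratio of 0.290 (0.00644 to 2.26). LINC00471 (0.241 and 1.07 RPKM in the same order) rested on 1 read and 9 reads, with a ratio of 0.226 (0.00515 to 1.63). Neither interval leaves out 1 at these reads, which are minimum numbers for LINC00339.

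With both criteria, 2-fold and an interval that leaves out 1, no member was higher, beside 0.79% of all features, and 2 were lower (LINC00998 and LINC01137), beside 2.07% of all features. The intervals cover counting error only, not the spread between cultures. Reads were few enough to give tied values: 8 members had the same number of reads in both libraries, between 1 and 13 each, and so share 1 ratio, 2.03, which is the ratio of the depths. LINC00630 (13 reads in each library) and LINC00518 (5 reads in each) are examples.

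**Figure D2:**
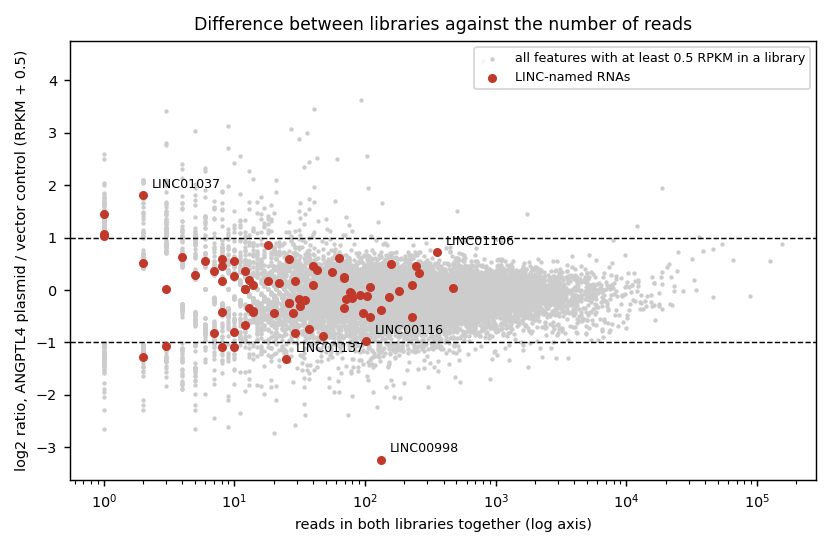
Log2 ratio of RPKM + 0.5 (ANGPTL4 plasmid over vector control) against the number of reads in both libraries together (log axis), 1 point per LINC-named RNA. The 4 members at least 2-fold higher all have under 20 reads, and with 20 reads or more LINC00998 and LINC01137 are the members beyond 2-fold.

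Without the size rule, the interval left out 1 on the higher side for 3 members, beside 7.35% of all features, and on the lower side for 4 members, beside 22.4% of all features. Intervals from minimum reads may be too wide, so these counts and those with both criteria can be too low. The share of features depends on their reads: over members with at least 20 reads in all the shares were 6.98% higher and 9.30% lower, and over all 11898 features with as many reads they were 7.82% and 25.4%. Those 43 members and those features still differ in level, with medians of 1.69 and 1.98 RPKM for the members, ANGPTL4 library first, and 5.31 and 5.96 RPKM for the features.

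The 3 on the higher side were LINC01106, LINC00152 and LINC00263. LINC01106, at chr2:111132715-111142019 of hg19, was at 17.9 RPKM (161 reads) in the ANGPTL4 library and 10.7 RPKM (195 reads) in the control library, a ratio of 1.68 (1.35 to 2.08). LINC00152 (CYTOR), a cytoplasmic RNA studied for its effect on tumour cell growth and migration, was at 6.53 RPKM (at least 66 reads) in the ANGPTL4 library and 4.48 RPKM (at least 92 reads) in the control library, a ratio of 1.46 (1.05 to 2.02). LINC00263 (OLMALINC), first described in oligodendrocytes, was at 4.12 RPKM (102 reads) in the ANGPTL4 library and 2.86 RPKM (144 reads) in the control library, a ratio of 1.44 (1.11 to 1.87). All 3 stayed under 2-fold. The gene 8780 bases from LINC00263 is SCD, the stearoyl-CoA desaturase of fatty acid synthesis, which was at 239 RPKM in the ANGPTL4 library and 274 RPKM in the control library.

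LINC01106 has a near copy among the members, LINC01123, in the same region of chromosome 2 (chr2:110744640-110753717 of hg19). Of the longest LINC01106 transcript in GENCODE release 29, 96.2% aligned to LINC01123 at 97.4% identity, and 58.0% of the longest LINC01123 transcript aligned to LINC01106 at 99.9%. A stretch of 120 bases from a shared run of 883 bases is shown for both, with its 1 mismatch in capitals, because reads from such stretches can be given to either row.

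LINC01106: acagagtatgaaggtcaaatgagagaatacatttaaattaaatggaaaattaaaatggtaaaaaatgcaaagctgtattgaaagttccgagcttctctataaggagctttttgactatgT
LINC01123: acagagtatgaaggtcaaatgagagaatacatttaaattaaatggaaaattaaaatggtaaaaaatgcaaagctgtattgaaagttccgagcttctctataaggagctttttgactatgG

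LINC01123 was at 9.39 RPKM (100 reads) in the ANGPTL4 library and 7.39 RPKM (160 reads) in the control library, a ratio of 1.27 (0.979 to 1.64). How the counting split shared reads is not given in the sources used here, so the level of each is uncertain. Their reads added up to 261 in the ANGPTL4 library and 355 in the control library, a ratio of 1.49 (1.27 to 1.76). If each read was counted once, the sum does not depend on how reads were split between these rows. LINC00116, which lies between them on the chromosome, went the other way (below). In all, 11 of the 72 members with a GENCODE transcript were covered for at least 50% of its length, at 95% identity or more, by another locus, among them LINC01001, LINC01002, LINC00265 and LINC00342. LINC00106 and LINC00685 lie in the pseudoautosomal region, so each has an identical copy on the other sex chromosome. CYTOR shares 30.0% of its longest transcript with MIR4435-2HG at 99.2% identity.

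On the lower side the other two were LINC00116 and LINC00667. LINC00116 (MTLN, mitoregulin, a microprotein of the inner mitochondrial membrane that aids fatty acid oxidation) was at 2.86 RPKM (19 reads) in the ANGPTL4 library and 6.08 RPKM (82 reads) in the control library. Its ratio of 0.471 (0.270 to 0.783) gives a log2 ratio of -0.97 with 0.5 RPKM added, just short of the 2-fold size. LINC00667 was at 2.98 RPKM (57 reads) in the ANGPTL4 library and 4.45 RPKM (173 reads) in the control library, a ratio of 0.670 (0.487 to 0.908).

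**Figure D3:**
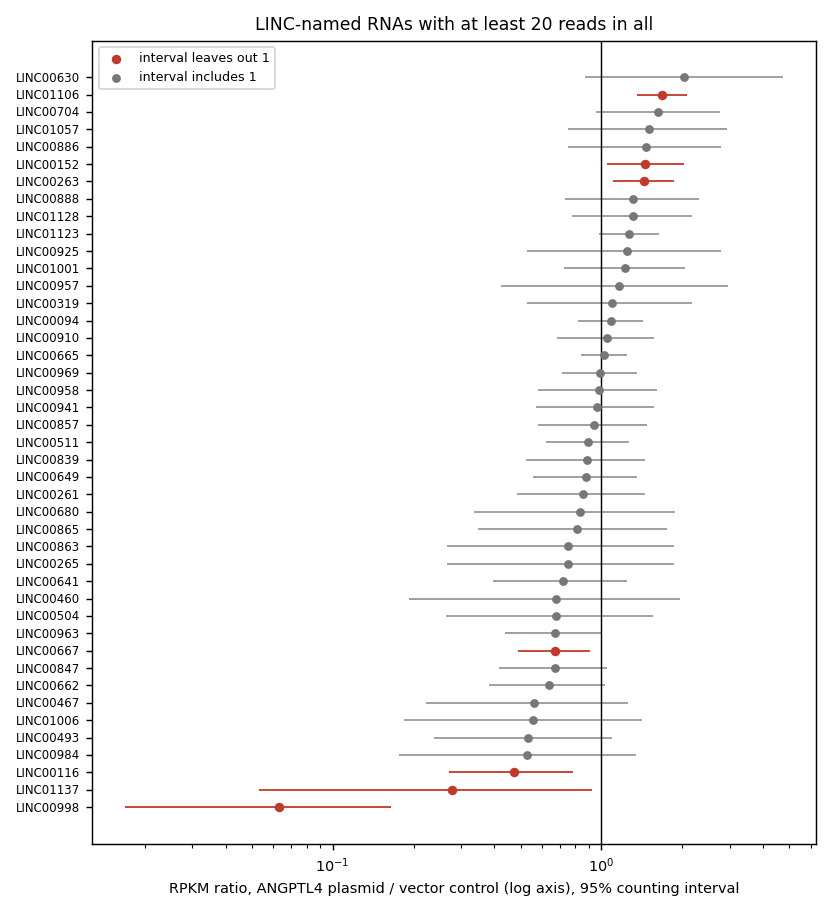
Ratio of RPKM (ANGPTL4 plasmid over vector control, log axis) with its exact 95% counting interval for each LINC-named RNA with at least 20 reads in all. The intervals of LINC01106, LINC00152 and LINC00263 lie above 1 and those of LINC00998, LINC01137, LINC00116 and LINC00667 below 1.

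The 6 members that RefSeq lists as protein-coding split into 4 that were lower and 2 near equality. Besides LINC00998 and LINC00116, LINC00493, which encodes the mitochondrial membrane protein SMIM26, was at 15.1 RPKM (at least 10 reads) in the ANGPTL4 library and 28.2 RPKM (at least 38 reads) in the control library, a ratio of 0.535 (0.238 to 1.09). LINC00984 (INAFM2, a predicted membrane protein) was at 3.12 RPKM (at least 6 reads) in the ANGPTL4 library and 5.89 RPKM (at least 23 reads) in the control library, a ratio of 0.530 (0.177 to 1.34). Both intervals include 1, but both rest on minimum reads and may be too wide. For LINC00493 the length used, 205 bases, is shorter than its reading frame of 288 bases with the stop. Its true reads are thus more, and its interval at those reads may leave out 1. LINC00094 (BRD3OS), on the strand opposite the chromatin reader gene BRD3, was at 3.86 RPKM (80 reads) in the ANGPTL4 library and 3.56 RPKM (150 reads) in the control library, a ratio of 1.08 (0.816 to 1.43). LINC01155 (KANTR), next to the histone demethylase gene KDM5C, was at 0.656 and 0.581 RPKM in the ANGPTL4 and control libraries. The median log2 ratio of the 6 was -0.85, that of the other 70 members 0.02 and that of all features -0.115. No test of the 6 against the rest was made.

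Of the 7 RNAs in the list of LINC rows known to encode small proteins, 6 are in the tables and 3 reached 0.5 RPKM. These were LINC00998, LINC00493 and LINC00116, all lower in the ANGPTL4 library, as were 8485 of all 13549 features. The list leaves out LINC00094, LINC00984 and LINC01155, which RefSeq also lists as protein-coding. LINC00984 was lower, and LINC00094 and LINC01155 were near equality (above). LINC00086 and LINC00961 (SPAAR, a lysosomal regulator of mTORC1) were under 0.5 RPKM in both libraries and LINC00087 was listed at 0 in both. The messenger RNAs of the trifunctional protein, a mitochondrial partner of MTLN in fatty acid oxidation, were measured too and did not reach 2-fold. Both had intervals below 1, as did 22.4% of all features. HADHA was at 33.7 RPKM in the ANGPTL4 library and 42.0 RPKM in the control library, a ratio of 0.802 (0.716 to 0.898), and HADHB was at 14.0 and 18.8 RPKM in the same order, a ratio of 0.744 (0.626 to 0.881). CPT1A, which passes fatty acids into mitochondria, was at 44.4 RPKM in the ANGPTL4 library and 45.0 RPKM in the control library.

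In the list of 10 LINC RNAs with described functions, 9 are in the tables and 3 were measured: LINC00152 (above), LINC00941 and LINC00662. LINC00941 was at 3.49 RPKM in the ANGPTL4 library and 3.64 RPKM in the control library. LINC00662 was at 0.894 RPKM (23 reads) in the ANGPTL4 library and 1.40 RPKM (73 reads) in the control library, a ratio of 0.640 (0.382 to 1.04). LINC00473, LINC01021 (PURPL, a p53 target), LINC00632 and LINC00657 were listed at 0 in both libraries. LINC00657 is NORAD, an RNA abundant in most cell lines, so a 0 under this name says only how the row is listed.

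Of 12 LINC RNAs studied in cancer, 9 were measured, none at 2-fold and none with an interval that left out 1 at the reads used. Over all features the interval left out 1 for 7.35% on the higher side and 22.4% on the lower side. LINC00665 was at 8.56 RPKM (158 reads) in the ANGPTL4 library and 8.37 RPKM (314 reads) in the control library, a ratio of 1.02 (0.839 to 1.24), the narrowest interval of the list. LINC00958, known in bladder cancer as BLACAT2, was at 7.02 RPKM in the ANGPTL4 library and 7.19 RPKM in the control library, a ratio of 0.977 (0.581 to 1.60). LINC00857 was at 4.13 and 4.42 RPKM, and LINC00511 at 1.69 and 1.89 RPKM, ANGPTL4 library first. The sign of the log2 ratio of LINC00958, LINC00857, LINC00511 and LINC00941 turned under at least 1 other scaling, so no direction is given for them. LINC00467 was at 2.82 RPKM (at least 8 reads) in the ANGPTL4 library and 5.03 RPKM (at least 29 reads) in the control library, a ratio of 0.561 (0.222 to 1.26). The length used for it was 877 bases, and its longest GENCODE transcript has 3508. Whether its interval includes 1 at its true reads is thus not settled. LINC00460 was at 1.34 and 1.98 RPKM, LINC00641 at 1.05 and 1.47 RPKM, LINC00346 at 1.06 and 0.780 RPKM, and LINC00319 at 1.03 and 0.937 RPKM, each with the ANGPTL4 library first and an interval that includes 1. The LINC00472 and LINC01116 rows were under 0.5 RPKM in both libraries and LINC00355 was at 0 in both.

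Near the threshold of the rule, LINC00887 (0.521 and 0.403 RPKM), LINC00106 (0.522 and 0 RPKM) and LINC00313 (0.537 and 0.529 RPKM) were just inside, ANGPTL4 library first. Just outside were LINC00302 (0 and 0.499 RPKM), LINC00520 (0.379 and 0.497 RPKM) and LINC01143 (0 and 0.487 RPKM), in the same order.

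Set beside other classes of row name, the median log2 ratio of the 76 members was 0.01, with 39 above 0 and 37 below, and that of all 13549 features was -0.115, with 5064 above and 8485 below. Among the 43 members with at least 20 reads the median was -0.11, and among the 33 with fewer it was 0.18. The 131 rows named as antisense had a median of -0.04, with 17 at least 2-fold higher and 13 lower. The 27 host genes of small RNAs had a median of -0.20, with 1 each way. The 876 rows with clone-based names had a median of 0.19, with 211 higher and 140 lower. The 12439 remaining features had a median of -0.12, with 158 higher and 366 lower. The classes differ in level and in reads per row, and no class was tested against another.

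**Figure D4:**
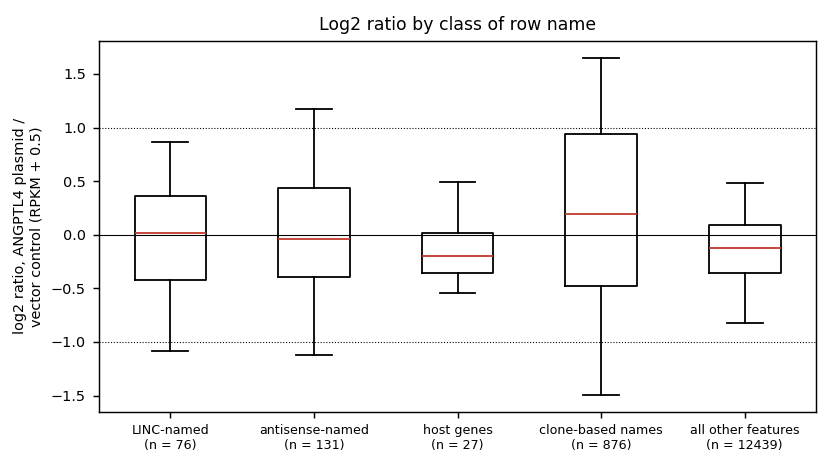
Log2 ratio of RPKM + 0.5 (ANGPTL4 plasmid over vector control) by class of row name, with the line at the median of each class. The 76 LINC-named RNAs have a median of 0.01, and the 876 clone-based rows a median of 0.19 with a wider spread.

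Over the 53 members with a settled exon length, log2 ratio and length had a Spearman rho of -0.11. Of the 76 members, 40 overlap another row and 7 overlap a measured one, and without known use of strand such reads cannot be told apart. LINC00094 overlaps BRD3 (12.6 and 12.8 RPKM), LINC00842 overlaps ANXA8L1 (36.3 and 26.5 RPKM), and LINC00649 overlaps ATP5O, a subunit of the mitochondrial ATP synthase (10.1 and 19.6 RPKM), ANGPTL4 library first. LINC00649 itself was at 0.679 and 0.775 RPKM in the same order. The nearest measured row outside a member lay at a median of 15058.5 bases, and 33 members had one within 10000 bases. The log2 ratios of member and neighbour had a Spearman rho of -0.04 over all 76 pairs and 0.09 over the 33 near ones. LINC01057 (SLC44A3-AS1), 60 bases from SLC44A3, was at 2.23 RPKM in the ANGPTL4 library and 1.48 RPKM in the control library, and SLC44A3 was at 1.08 and 2.70 RPKM in the same order.

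The machinery that degrades such RNAs was listed in 3 groups. Of 20 genes of the nuclear exosome and its adaptors, all were measured, 3 above equality and 17 below, beside 5064 above and 8485 below among all 13549 features, and their median log2 ratio was -0.19, beside -0.115 for all features. One, EXOSC3, a cap subunit of the exosome, was at least 2-fold lower, at 0.716 RPKM (7 reads) in the ANGPTL4 library and 2.47 RPKM (49 reads) in the control library, a ratio of 0.290 (0.111 to 0.644). The intervals of 4 of the 20 lay below 1 and of none above, and the lower share is near the 22.4% of all features. Of 10 decapping and 5′ decay genes, 5 were above equality and 5 below, with a median of -0.01, and the intervals of 3 lay below 1 (DCP2, EDC4 and XRN2) and of 1 above (DCP1B). DCP2, the decapping enzyme, was at 4.26 RPKM (137 reads) in the ANGPTL4 library and 7.26 RPKM (475 reads) in the control library, a ratio of 0.586 (0.481 to 0.710), and its cofactor DCP1B was at 4.94 and 3.32 RPKM in the same order, a ratio of 1.49 (1.04 to 2.12). Of 10 genes of nonsense-mediated decay, 6 were above equality and 4 below, with a median of 0.14 and none at 2-fold, and the intervals of 2 lay below 1 and of 1 above. Beside these counts and those of the decapping group, 22.4% of all features had an interval below 1 and 7.35% above. Whether these levels bear on the members was not tested.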

How the data were processed

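BFTC 905 RNA, isolated with TRIzol, gave 1 library for the ANGPTL4 plasmid and 1 for the vector, each assigned by the transfection in its label. The authors deposited RPKM values by gene, per the file headers. The submitters' processing notes name hg19 as the genome build. Not given in the sources used here are the aligner, annotation, read length, use of strand and handling of multiply matching reads. Since RPKM is relative to a library's total, abundant genes lower the rest. The members and lists were chosen with earlier results of these data known.

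The log2 ratio used RPKM + 0.5, since members under 1 RPKM in both libraries cannot reach 2-fold with 1 added. It understates differences of low rows. Depth was the smallest whole total at which all 13 mitochondrial protein-coding rows gave whole reads, to within 0.001 read. The exon length of a row was sought among whole numbers that turn the RPKM of either library into whole reads (to within 1e-09 of their number, or more where RPKM is under 1), and taken as settled where 1 candidate remained, or 1 within a factor of 1.5 of the GENCODE release 29 exon length, or, where candidates were at least 100 bases apart, one equal to it. Of 18483 rows above 0, 14682 (79.4%) were settled, and 53 of the 76 members. For 3790 rows the smallest length was used, so their reads are minimum numbers ("at least"), and for 11 no length was found. Ratios have exact binomial (Clopper-Pearson) 95% intervals given both depths, for counting error only, and reads without molecular identifiers are not independent molecules. With 1 library per group no p-value was computed.

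Described by rule were the 10 members with the highest mean, members past 2-fold whose interval leaves out 1, the members of the lists of small proteins, functions and cancer, the 3 rows on each side of 0.5 RPKM, and overlapping rows. The other members past 2-fold, those whose interval alone leaves out 1, and those shown for their neighbours, copies or RefSeq type were chosen after their values were seen. Promoters are from RefSeq (GRCh38.p14, 54 members matched), reading frames and transcripts from GENCODE release 29. Their coordinates were not mixed with hg19, whose starts are printed counting from 1. Transcripts were compared with BLAST+ 2.17.0. Python 3.11.15, pandas 2.3.3 and SciPy 1.17.1 were used. Other pseudocounts, scalings, minimum levels and criteria were tried. Some listed genes are not reported here.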

Additional observations from a re-analysis of the deposited data

How the results depend on the processing

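Counts of members past 2-fold depended on the pseudocount, the minimum level and the number of reads. With a pseudocount of 0.1 RPKM, 10 members were lower; with 1 RPKM, 1 was higher and 2 were lower; with 5 RPKM, 0 were higher and 1 was lower. With a minimum of 1 RPKM, 1 was higher, and with a minimum of 5 RPKM, 0 were higher, 1 was lower and the median log2 ratio of the 11 members left was -0.52. Asking also for an interval that leaves out 1 gave 0 higher and 2 lower, and so did asking for at least 20 reads in all, an alternative chosen after seeing the data. Every other alternative stayed within 1.5 times of both counts. Centring on the median feature shifted log2 ratios by 0.115 and upper-quartile scaling by 0.16, and under upper-quartile scaling 4 members were higher and 4 lower, against 4 and 6 as deposited. Of 162 values for 27 named members, 161 stayed within the member's wide counting interval, and LINC00998 alone left it, at -1.44 with a pseudocount of 5 RPKM. Sides of the 2-fold size were less stable: 19 of the 162 values crossed it, 17 of them with another pseudocount, and of the 10 members past 2-fold only LINC00998 was past it under each of these 6 alternatives. No paired analysis was possible because each group has 1 library, and no replicate could be left out for the same reason. Depth is a limit for the 33 of 76 members with fewer than 20 reads in all.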
